A study of Homo sapiens with 18 samples.

Results

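The HOX cluster genes are the 39 human homeobox genes named HOXA, HOXB, HOXC or HOXD with a number, and they were taken from a table of 58735 rows by that name alone. The HOXA cluster on chromosome 7 holds 11 of them, HOXB on chromosome 17 holds 10, and HOXC on chromosome 12 and HOXD on chromosome 2 hold 9 each. The study compared a skin and an oral keratinocyte line before and after a scratch wound, and asked how their transcriptomes differ at rest and during closure. HaCaT is a spontaneously immortalized keratinocyte line from adult skin, and TIGK is a line of gingival keratinocytes immortalized with telomerase. Each line was collected unscratched at 0 h and at 6 h and 24 h after a scratch, giving 6 groups of 3 libraries and 18 libraries in all. No other treatment or genetic change was named for any group. Skin and mouth were each represented by 1 cell line, so that site, donor, line and mode of immortalization cannot be told apart. Nothing in the labels says that the libraries of a group came from separate cultures, so the p-values speak only of library-to-library spread, part of which may be technical. A library is called by its line, its time and its column letter A, B or C.

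HOX genes encode transcription factors that give cells their address along the body axis. Within each cluster the genes are arranged in the order in which they are used from head to tail: low-numbered paralogs are active in the hindbrain and pharyngeal region, and high-numbered ones in the lower trunk, the limb ends and the genital region. Adult skin cells keep part of this code from the site they came from. The jaws and the front of the mouth develop from HOX-negative neural crest, whereas HOXC13 is known from hair follicles, nails and the filiform papillae of the tongue, where it controls hair keratin genes.

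Library totals ran from 14238090 to 25011331 counts. TIGK 0 h C and TIGK 6 h C stood apart, with 26246 and 25161 genes detected against 21164 to 22799 in the other 16 libraries, and with 5.08% and 4.98% of counts on mitochondrial genes against 5.84% to 8.08%. TIGK 24 h C lay within the other libraries on both measures. By the chi-square per degree of freedom between the counts of 2 libraries of a group, each of the 3 letter C libraries of TIGK was far from its group, at 14.6 to 19.6, against 3.46 to 7.49 for the letter A and B pairs of TIGK and 3.74 to 7.48 for all pairs of HaCaT. All 12 keratinocyte markers were at 1 CPM (count per 1000000 of a scaled library total) or more in every group, summing to 43000 to 46400 CPM in HaCaT and 33630 to 44070 CPM in TIGK. Of the other cell types checked, the 6 fibroblast markers summed to 20.9 to 40.5 CPM in HaCaT and 235.1 to 433.6 CPM in TIGK, with 1 and 3 to 4 of them at 1 CPM or more. Most of that sum came from COL1A1, a collagen chain, at 26.7 ± 2.445 CPM in HaCaT and 152 ± 6.68 CPM in TIGK at 0 h (SD, n = 3), and from DCN, a matrix proteoglycan, at 0.461 ± 0.1835 and 100.4 ± 19.8 CPM. LUM was at 2.299 ± 0.7195 CPM in TIGK at 0 h, COL3A1 at 0.292 ± 0.0474, PDGFRA at 0.207 ± 0.161 and COL1A2 at 0.0205 ± 0.0355. Melanocyte markers summed to at most 9.199 CPM in HaCaT and 27.6 in TIGK, immune cell markers to 1.73 and 6.404, and endothelium markers to 8.155 and 6.86. In bulk RNA, fewer cells of a type and less RNA per cell cannot be told apart, and the part of these markers in the HOX differences was not tested.

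The 4 clusters were used unequally, and HOXC carried the largest part of the HOX signal in both lines. Levels between genes are given in the deposited FPKM, here counts scaled to gene length and to a size factor per library, since counts rise with gene length. At 0 h the 39 genes summed to 166.1 ± 1.99 FPKM in HaCaT and 54.0 ± 5.46 FPKM in TIGK (SD, n = 3). In HaCaT the HOXC genes summed to 76.6 ± 2.34 FPKM, HOXA to 59.6 ± 2.46, HOXD to 24.8 ± 1.43 and HOXB to 5.13 ± 0.669. TIGK had 29.03 ± 2.34 FPKM from HOXC, 11 ± 0.905 from HOXA, 8.23 ± 1.85 from HOXD and 5.76 ± 1.10 from HOXB. The HOXA, HOXC and HOXD sums of the lines did not overlap, while those of HOXB did. HOXB made up 3.09% of the HaCaT sum and 10.7% of the TIGK sum, and HOXA 35.9% and 20.4%. By 24 h the HOXD share in HaCaT stood at 22.95%, against 14.9% at 0 h, and HOXA at 29.5%. These sums and shares are descriptions with no test.

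**Figure D1:**
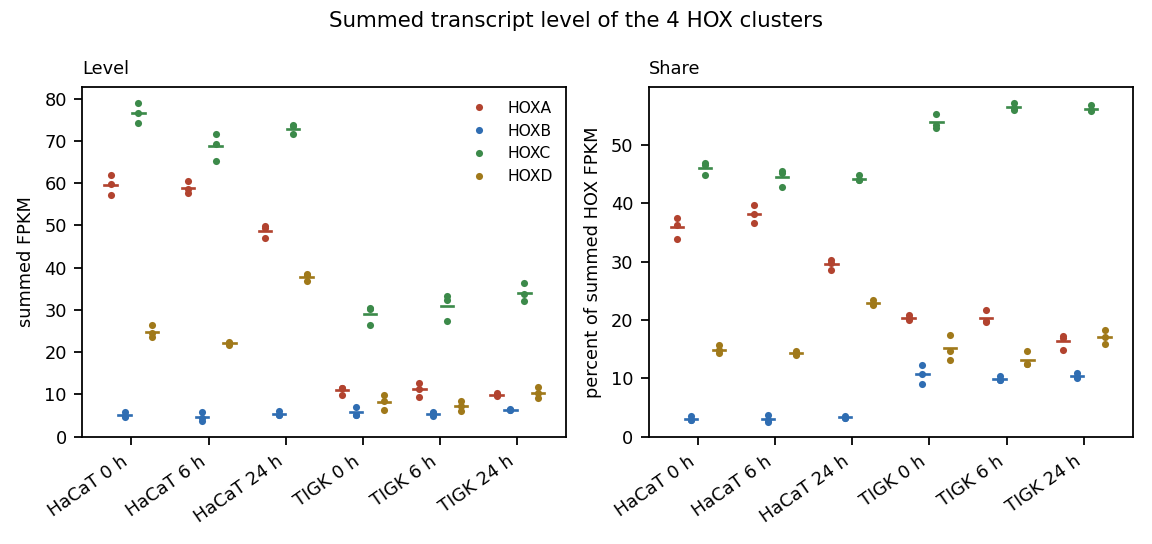
Summed FPKM (left) and percent of the summed HOX FPKM (right) of each cluster in every library of the 6 groups, with a line at the group mean. HOXC is the highest cluster in both lines. The HOXB sums of the lines overlap at 0 h and 6 h but not at 24 h, at 5.163 to 5.984 FPKM in HaCaT and 6.226 to 6.48 in TIGK.

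The order of the genes differed between the lines below a shared first place. HOXC13 had the highest FPKM of all HOX genes in each of the 6 groups, with 17.8% of the HOX sum in HaCaT and 28.8% in TIGK at 0 h. Its FPKM at 0 h was 29.5, 28.02 and 31.1 in HaCaT libraries A to C and 16.3, 17.3 and 13.1 in TIGK. In HaCaT it was followed by HOXA9 at 23.8 ± 1.31 FPKM, HOXC10 at 19.1 ± 0.418, HOXD9 at 11.9 ± 0.674 and HOXD10 at 10.5 ± 0.684 (SD, n = 3). The libraries of HOXD9 and HOXD10 overlapped. In TIGK HOXC10 was at 8.285 ± 0.692 FPKM, HOXB7 at 4.355 ± 0.887 and HOXD9 at 3.57 ± 0.822, and the last 2 did not differ beyond their spread. HOXA9, a factor of posterior body identity and blood stem cells, ranked 2 in HaCaT and 20 in TIGK, and HOXC12 ranked 7 and 24. By the measure of a group mean of at least 1 CPM, 22 of 39 genes were present in HaCaT at 0 h and 20 in TIGK. At least 10 CPM was reached by 13 genes in HaCaT and 3 in TIGK.

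**Figure D2:**
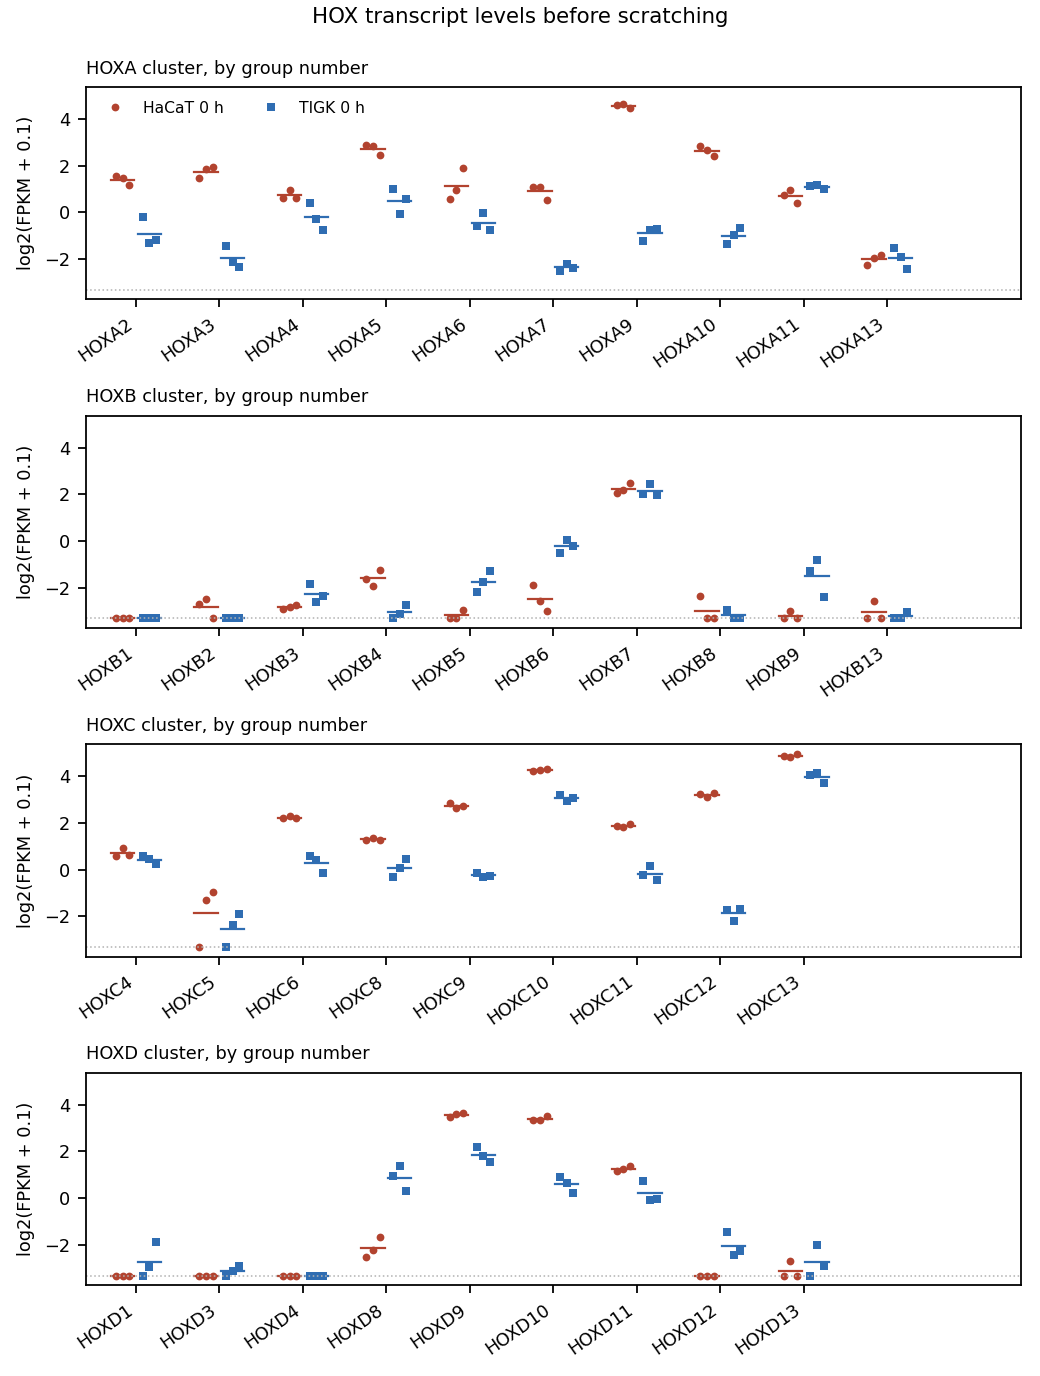
Level of HOX genes in the unscratched cells as log2(FPKM + 0.1), in panels by cluster and in order of paralog number, with HaCaT libraries as red circles, TIGK libraries as blue squares and a short line at the mean. The dotted line marks 0 FPKM, and the low-numbered HOXD genes sit on it in HaCaT.

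The filter on low counts left 9 members untested: HOXB1, HOXB2, HOXB8, HOXB13, HOXD1, HOXD3, HOXD4, HOXD12 and HOXD13. The other 30 were tested, namely 11 of 11 in HOXA, 6 of 10 in HOXB, 9 of 9 in HOXC and 4 of 9 in HOXD. The filter keeps a gene with enough counts in 3 libraries, so that a gene present in a single line can pass. HOXD1, HOXD3, HOXD4 and HOXD12 had no count in any of the 9 HaCaT libraries, where a count of 0 allows up to 3 counts, or 0.182 to 0.204 CPM per library. Their totals over the 9 TIGK libraries were 29, 6, 7 and 24 counts. HOXD4 and HOXD3 share 80.5% and 62.2% of their exonic bases with another gene on the same strand, and HOXD1 58.1% with genes on the other. Reads in the shared bases may be missing from their counts, which was not tested, while HOXD12 shares none. The HOXD genes detected at 1 CPM or more were HOXD8 to HOXD11 in TIGK and HOXD9 to HOXD11 in HaCaT. These are a run of neighbours in the middle of the cluster. HOXB13, known from prostate and posterior skin, totalled 15 counts in HaCaT and 3 in TIGK, and HOXD13, a gene of the digits and genitalia, 3 and 10.

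In the unscratched cells, most HOX genes tested were higher in HaCaT, and the few that were lower lay in HOXB and at HOXD8. Differences between groups are given in CPM scaled by edgeR's TMM factors, with edgeR's quasi-likelihood test and Benjamini-Hochberg adjustment over all 17409 genes tested; a ± after a log2 value is its standard error. At an adjusted p under 0.05, 20 of the 30 genes (66.7%) were higher in HaCaT, against 29.3% of all genes, and 5 (16.7%) were lower, against 33.3%. Their median log2 fold change was 1.27, and that of all genes -0.04. The 5 lower genes, and HOXA7 and HOXB4 of those higher, passed the filter only through the line where they are high. The shares differed by cluster: 9 of 11 HOXA genes were higher and none lower, 7 of 9 HOXC genes were higher and none lower, 3 of 4 HOXD genes were higher and 1 lower, and 1 of 6 HOXB genes was higher and 4 were lower. By position along the clusters, 5 of 7 tested genes of groups 1 to 4 were higher, 5 of 10 of groups 5 to 8, and 10 of 13 of groups 9 to 13. Leaving out TIGK 0 h C and TIGK 6 h C gave 19 higher and 4 lower.

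**Figure D3:**
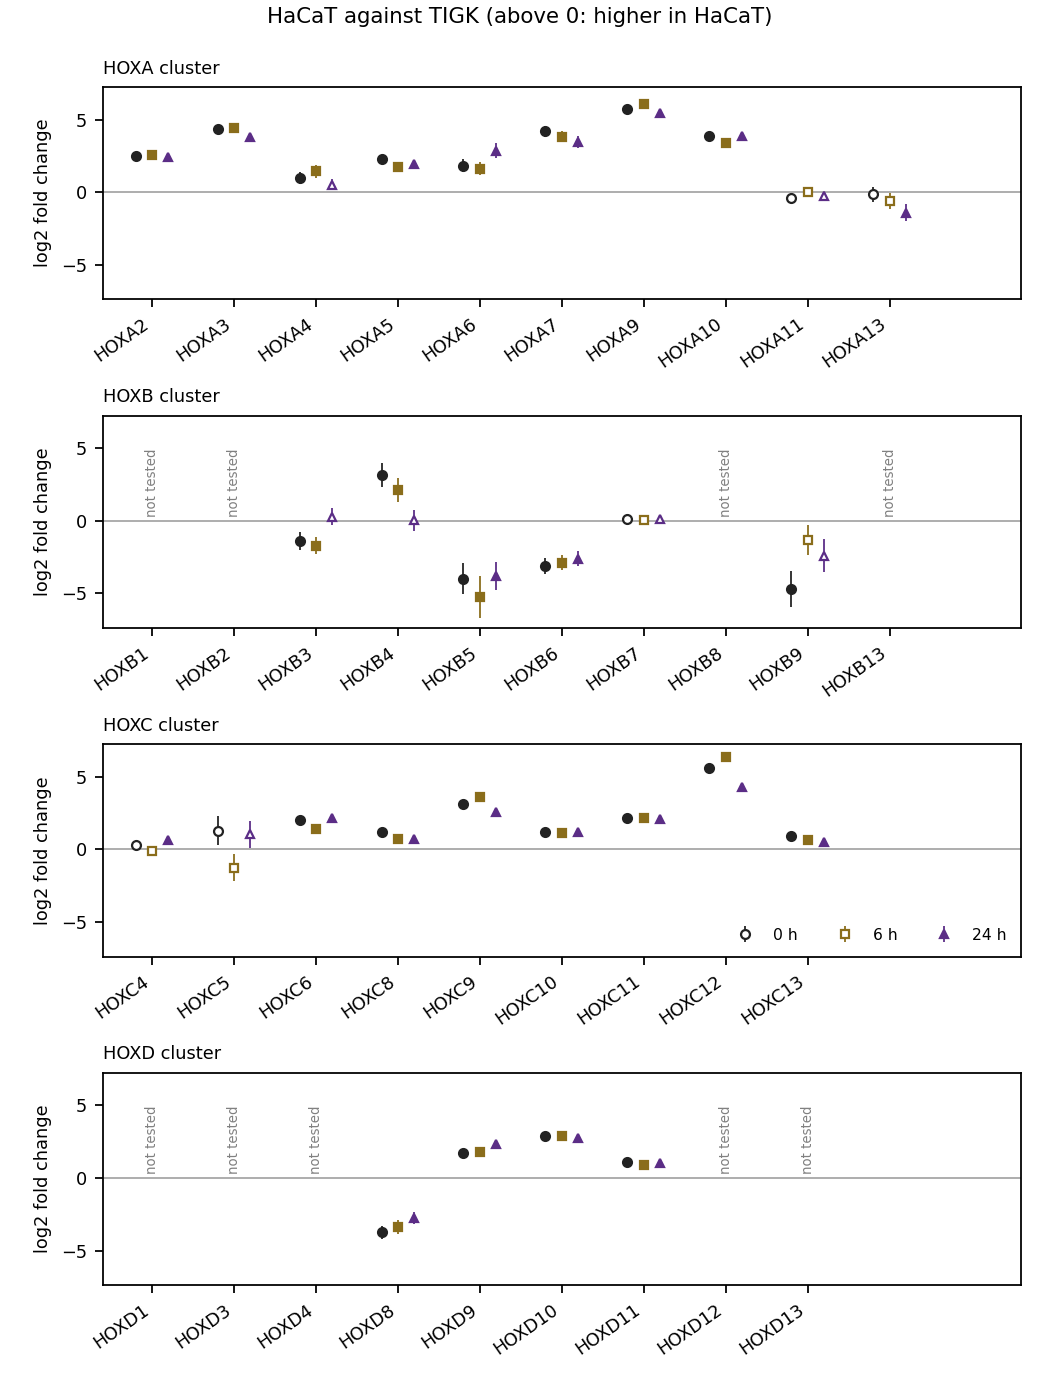
Log2 fold change of HaCaT against TIGK for HOX genes at 0 h (black circles), 6 h (brown squares) and 24 h (purple triangles), with bars of 1 standard error, in order of position in the 4 clusters. Filled symbols passed the test, open ones did not, and genes below the filter are marked as not tested.

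HOXA9 and HOXD8 are shown by sequence because they stood near the opposite ends of the line difference, and HOXD8 was chosen for this after its values were seen. Of the genes that led a cluster at 0 h, only HOXA9 had an entry in the promoter table used (RefSeq, GRCh38.p14). The stretches run 5′ to 3′ up to an annotated start, that of RefSeq for HOXA9 and that of the deposited gene span for HOXD8. Capitals mark matches to the motifs searched. The HOXA9 stretch lies inside the deposited span of the gene, chr7:27162435-27175180, which begins further upstream.
HOXA9 chr7:27165538-27165787 (minus strand): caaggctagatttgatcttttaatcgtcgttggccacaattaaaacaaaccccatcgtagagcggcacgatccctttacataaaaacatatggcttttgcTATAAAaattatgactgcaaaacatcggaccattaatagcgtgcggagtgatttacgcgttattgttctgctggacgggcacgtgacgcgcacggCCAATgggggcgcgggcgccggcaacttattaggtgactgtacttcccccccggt
HOXD8 chr2:176129455-176129693 (plus strand): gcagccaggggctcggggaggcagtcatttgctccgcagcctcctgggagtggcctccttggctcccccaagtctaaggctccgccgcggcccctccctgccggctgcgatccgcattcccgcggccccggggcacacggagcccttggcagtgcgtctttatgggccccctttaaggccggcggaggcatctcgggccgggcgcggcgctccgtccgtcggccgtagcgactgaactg
The motifs were the TATA box as TATAAA, the CCAAT box, a composite HOX and PBX site as TGATNNAT, an AP-1 site as TGANTCA and a cAMP response element as TGACGTCA. All were searched on both strands over windows from 250 bases before to 50 after the start. The HOXA9 stretch holds TATAAA at base 101 and CCAAT at base 196 of what is printed, and the HOXD8 window holds none of the 5. GC content was 48.8% and 72.0% of the printed bases. Over the 26 distinct windows of the 20 HOX genes with an entry, HOXC4 and HOXC5 sharing 1, 5 held the TATA box, 17 the CCAAT box, 3 the HOX and PBX site and 0 either of the last 2. Of all 35116 promoters, 11.5% held the TATA box, 34.6% the CCAAT box, 7.4% the HOX and PBX site, 7.71% the AP-1 site and 1.85% the cAMP element. Matches are descriptions of these letters and not of a bound site.

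In HOXA the line difference was largest at HOXA9, in the posterior part of the cluster. HOXA9 (ENSG00000078399, chr7:27162435-27175180, hg38) was at 74.1, 77.4 and 69 CPM in HaCaT libraries A to C at 0 h and at 0.983, 1.5 and 1.59 CPM in TIGK. All 3 HaCaT libraries stood far above the TIGK ones, and the difference was 52.6-fold (log2 5.72 ± 0.17, adjusted p = 3.8e-19). Its neighbour HOXA10, a factor of the uterus and the lower spine, was at 26.3, 24.1 and 19.8 CPM in HaCaT and 1.11, 1.56 and 1.97 CPM in TIGK. The groups did not overlap, with a fold of 14.7 (adjusted p = 2.2e-13). HOXA3, which patterns the third pharyngeal arch and the thymus, was at 11.5, 15.4 and 16.2 CPM against 1.17, 0.577 and 0.416 CPM, and was 20.9-fold higher in HaCaT (adjusted p = 3.4e-13). HOXA5, which acts in lung and neck development, had 12.7, 12.4 and 9.23 CPM against 3.26, 1.5 and 2.42 CPM, and was 4.79-fold higher (adjusted p = 4.9e-07). HOXA2, HOXA6 and HOXA7 were 5.61-, 3.56- and 18.3-fold higher, at group means of 6.37, 2.98 and 4.398 CPM in HaCaT. HOXA7 passed the filter only through HaCaT. HOXA4 was called at 1.98-fold with an adjusted p of 0.039, a call lost without any 1 of HaCaT 0 h A, B or C or TIGK 0 h B or C.

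The far end of HOXA differed from the rest of the cluster. HOXA11, which shapes the forearm and the uterus, was at 3.72, 4.396 and 2.87 CPM in HaCaT and 4.855, 5.08 and 4.46 CPM in TIGK at 0 h. Every HaCaT library was below every TIGK library, but the fold change did not pass the test (log2 -0.39 ± 0.26, adjusted p = 0.19). HOXA13, a gene of the hands, feet and genital tract, stayed at 0.772 and 0.8699 CPM on average. HOXA11 shares 31.1% of its exonic bases with an antisense RNA, HOXA11-AS, and HOXA7 and HOXA6 share 62.5% and 39.3% with HOXA-AS3. Whether counting used strand is not given in the sources used here, so reads of these pairs cannot be told apart. For HOXA9 the share was 15.9% with genes on the same strand and 13.9% with HOXA10-AS on the other. The same-strand and other-strand shares were 31.0% and 16.3% for HOXA4, 9.93% and 16.4% for HOXA10, and 9.24% and 15.4% for HOXA3.

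In HOXC every gene tested had a positive fold change at 0 h, and the difference was largest at HOXC12. HOXC12 (ENSG00000123407, chr12:53954834-53958956), a posterior gene next to HOXC13, was at 31.7, 29.04 and 32.2 CPM in HaCaT and 0.676, 0.404 and 0.719 CPM in TIGK. The TIGK values rest on 11, 7 and 19 counts, all far below the HaCaT libraries, and the fold was 49.9 (log2 5.64 ± 0.19, adjusted p = 5.3e-18). HOXC12 shares no exonic base with another annotated gene. Its neighbour HOXC13 (ENSG00000123364, chr12:53938765-53946544) was high in both lines and differed far less. It was at 72.5, 69.3 and 76.5 CPM in HaCaT and 40.1, 42.6 and 32.3 CPM in TIGK, without overlap, or 1.904-fold (log2 0.93 ± 0.11, adjusted p = 5.8e-08). HOXC9, a gene of thoracic identity, was at 12.1, 10.5 and 10.98 CPM against 1.35, 1.21 and 1.25 CPM, and was 8.77-fold higher (adjusted p = 1.6e-09). HOXC10, which acts in lumbar motor neurons and the hindlimb, had 44.5, 45.01 and 46.35 CPM in HaCaT and 21.2, 18 and 19.7 CPM in TIGK. That difference was 2.31-fold (adjusted p = 8e-10), and HOXC10 was the second most abundant HOX gene of TIGK by FPKM. HOXC11 was at 11.6, 11.6 and 12.5 CPM against 2.46, 3.35 and 2.12 CPM, or 4.55-fold (adjusted p = 2.6e-09). HOXC6, a gene of the upper trunk and the mammary gland, had 16.3, 17.15 and 16.1 CPM against 5.04, 4.44 and 2.84 CPM and was 4.09-fold higher (adjusted p = 5.5e-09). HOXC8, also of the trunk, had 4.42, 4.705 and 4.43 CPM against 1.35, 1.85 and 2.46 CPM, or 2.35-fold (adjusted p = 0.00041).

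HOXC4 and HOXC5, at the head end of the cluster, did not pass the test at 0 h. HOXC4 was at 3.91, 5.015 and 3.93 CPM in HaCaT and 3.81, 3.52 and 3.03 CPM in TIGK, with the lowest HaCaT library above the highest TIGK library and a log2 fold change of 0.32 ± 0.23 (adjusted p = 0.24). HOXC5 was near the limit of detection, at 0.435 and 0.159 CPM. On its strand, 59.9% of its exonic bases are shared with AC012531.2 and with another annotated entry of the name HOXC5. The part of these shared bases in its low counts was not tested. HOXC4 shares 17.8% and HOXC6 15.7% with other genes on the same strand.

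HOXB was low in both lines and carried most of the genes called lower in HaCaT at 0 h, though mostly on few counts. HOXB7 (ENSG00000260027), a gene of the trunk, was the only HOXB gene at 1 CPM or more in HaCaT. It was at 6.34, 6.87 and 8.48 CPM in HaCaT and 6.02, 8.365 and 5.9 CPM in TIGK at 0 h. The groups overlapped, and the log2 difference of 0.10 ± 0.19 did not pass the test (adjusted p = 0.66). HOXB6, next to it, was at 0.4485, 0.186 and 0.0624 CPM in HaCaT and 1.598, 2.42 and 2.005 CPM in TIGK. No HaCaT library reached the lowest TIGK library, and HOXB6 was 8.47-fold lower in HaCaT (adjusted p = 3.1e-05). HOXB5 was called lower on 0, 0 and 1 counts in HaCaT against 4, 7 and 17 in TIGK (adjusted p = 0.0029), and HOXB9 on 0, 1 and 0 against 13, 21 and 6 (adjusted p = 0.0022). HOXB3 was called lower with an adjusted p of 0.045 at 0.313 against 0.844 CPM. That call was lost under 20 of the other settings tried. HOXB4, a gene of blood stem cells, was the 1 HOXB gene called higher, at 0.8999 against 0.0823 CPM (adjusted p = 0.0019). HOXB3, HOXB5, HOXB6 and HOXB9 passed the filter only through TIGK, the line where they are high at 0 h, and HOXB4 only through HaCaT. With only the 0 h groups in the fit, HOXB3, HOXB4, HOXB5 and HOXB9 fell below the filter. The calls of HOXB3, HOXB4, HOXB5, HOXB6 and HOXB9 are therefore no support for a difference of the cluster as a whole.

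In HOXD the sign of the difference turned between neighbouring genes. HOXD8 (ENSG00000175879, chr2:176129694-176132695) was at 0.192, 0.3095 and 0.5615 CPM in HaCaT and 4.92, 6.63 and 2.99 CPM in TIGK. All TIGK libraries were above all HaCaT libraries, and HOXD8 was 13.3-fold lower in HaCaT (log2 -3.73 ± 0.46, adjusted p = 1.4e-07). HOXD8 passed the filter only through TIGK, the line where it is high. HOXD9, whose annotated end lies 4756 bases from HOXD8, was at 21.1, 23.2 and 23.5 CPM in HaCaT and 8.48, 6.404 and 5.45 CPM in TIGK. It was 3.37-fold higher in HaCaT without overlap (adjusted p = 1.2e-09). HOXD10 (ENSG00000128710, chr2:176108790-176119942), a gene of the lumbar cord and the limbs, was at 27.9, 27.4 and 30.8 CPM against 4.92, 3.98 and 2.95 CPM. The difference was 7.399-fold (log2 2.89 ± 0.17, adjusted p = 2e-13), the largest of the tested HOXD genes that were higher. HOXD11, which acts with HOXA11 in the forearm, was at 4.55, 4.83 and 5.43 CPM against 3.38, 1.85 and 1.89 CPM, or 2.11-fold (adjusted p = 0.0029). HOXD10 and HOXD11 share 16.8% and 21.4% of their exonic bases with each other on the same strand, so part of their reads may be split between them. HOXD8 and HOXD9 share none with other genes.

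The pattern of the lines was kept after the scratch for most genes. At 6 h, 20 of the 30 genes were higher in HaCaT, against 29.8% of all genes, and 4 were lower, against 32.8%. At 24 h the counts were 19 higher, against 28.6%, and 4 lower, against 33.1%. Without TIGK 24 h C these were 18 higher and 3 lower, with the calls of HOXC8 and HOXA13 lost. The 3 comparisons use separate libraries. The same 18 genes were higher at all 3 times, against 20.1% of all genes, and 3 genes, HOXB5, HOXB6 and HOXD8, were lower at all 3 times, against 24.3%. These 3 lower genes passed the filter only through TIGK, and HOXB5 totalled 3 counts in HaCaT and 74 in TIGK. Of the 18 higher genes, HOXA7 passed only through HaCaT. The 3 genes HOXA11, HOXB7 and HOXC5 were called at no time, and no gene was called in both directions. HOXA9 was 68.45-fold higher at 6 h and 43.02-fold at 24 h, HOXC12 82.8- and 19.9-fold, and HOXD10 7.61- and 6.67-fold. HOXC13 was 1.57-fold higher at 6 h (adjusted p = 1.4e-05) and 1.395-fold at 24 h (adjusted p = 0.00045). HOXC4 was higher at 24 h alone, at 1.57-fold (adjusted p = 0.015), a call lost without TIGK 24 h A or HaCaT 24 h B. HOXA13 was called lower at 24 h (adjusted p = 0.046) and HOXC8 higher (adjusted p = 0.049), and these calls were lost under 21 and 17 of the other settings.

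At 6 h after the scratch no HOX gene was called in either line. In HaCaT edgeR called 0 of 30 in both directions, against 0.138% of all genes that rose and 0.0632% that fell, and 0 were at an unadjusted p under 0.05. In TIGK it called 0, against 2.5% that rose and 1.12% that fell, and 1 was at an unadjusted p under 0.05. DESeq2 and limma-trend also called 0 in both lines. That 1 gene was HOXC12, at 0.676, 0.404 and 0.719 CPM in TIGK at 0 h and 0.399, 0.188 and 0.382 CPM at 6 h (log2 -0.90, adjusted p = 0.25). HOXA9 in HaCaT was at 74.1, 77.4 and 69 CPM at 0 h and 74.25, 72.2 and 76.3 CPM at 6 h, and the libraries of the 2 times overlapped. HOXC13 was at 65.4, 65.8 and 61.7 CPM in HaCaT and 44.65, 43.7 and 34.8 CPM in TIGK at 6 h. The difference in the 6 h response between the lines was called for 0 of 30 genes, against 0.218% of all genes that were more positive in HaCaT and 0.534% more negative. HOXC6 alone had an unadjusted p under 0.05 there.

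By 24 h the HaCaT HOX genes had moved in both directions, with HOXD9 to HOXD11 up and HOXA9 to HOXA11 down. Of the 30 genes 5 rose, or 16.7% against 15.5% of all genes, and 5 fell, or 16.7% against 15.9%. Both shares were near the background, so the counts say nothing particular about HOX genes. By cluster, 3 of 4 HOXD genes rose and none fell, 3 of 11 HOXA genes fell and none rose, and in HOXC 2 of 9 rose and 2 fell. No HOXB gene was called.

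**Figure D4:**
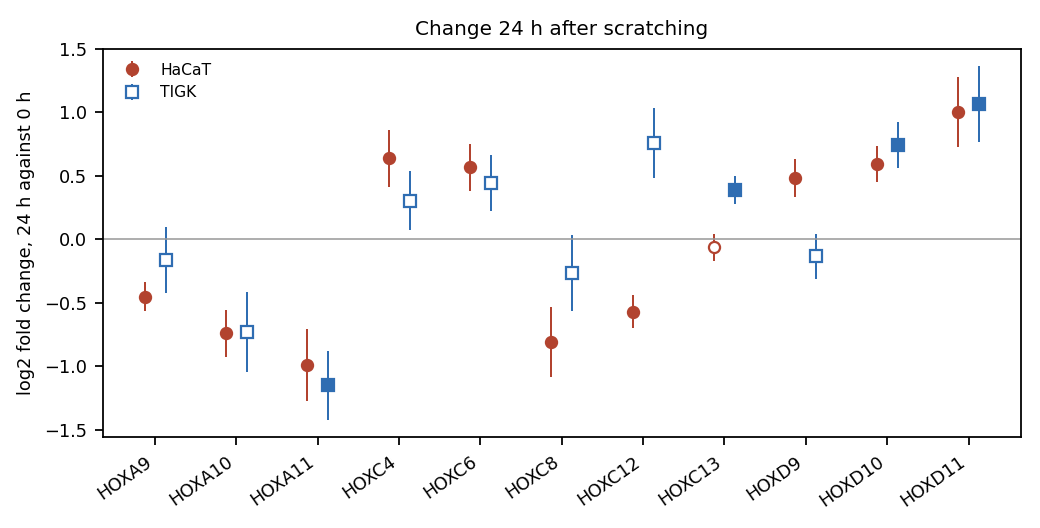
Log2 change from 0 h to 24 h after the scratch, with bars of 1 standard error, for the 11 HOX genes called in either line. Filled symbols passed the test, and HOXA11, HOXD10 and HOXD11 are filled in both lines.

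The HOXD genes that rose are neighbours on chromosome 2. HOXD10 was at 27.9, 27.4 and 30.8 CPM in HaCaT at 0 h and 42.6, 43.5 and 43.8 CPM at 24 h. All 24 h libraries were above all 0 h libraries (log2 0.59 ± 0.14, adjusted p = 0.0023). HOXD11 went from 4.55, 4.83 and 5.43 CPM to 10.2, 9.89 and 9.59 CPM, without overlap (log2 1.00 ± 0.27, adjusted p = 0.0065). These neighbours share exonic bases, as given above. HOXD9 went from 21.1, 23.2 and 23.5 CPM to 32.9, 32.3 and 29.5 CPM, also without overlap (log2 0.48 ± 0.15, adjusted p = 0.016). The HOXD9 call was lost without HaCaT 0 h A or HaCaT 24 h A. HOXD8, at 0.508, 1.02 and 0.979 CPM at 24 h, was not called (log2 1.21 ± 0.55, adjusted p = 0.098).

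The HOXA genes that fell are also neighbours, on chromosome 7. HOXA9 was at 57.25, 47.9 and 55.7 CPM in HaCaT at 24 h, below every 0 h library (log2 -0.45 ± 0.12, adjusted p = 0.0036). HOXA10 went from 26.3, 24.1 and 19.8 CPM to 13.7, 13.98 and 14.3 CPM, without overlap (log2 -0.74 ± 0.19, adjusted p = 0.0031). HOXA11 went from 3.72, 4.396 and 2.87 CPM to 1.46, 1.98 and 2.09 CPM, with every 24 h library below every 0 h library (log2 -0.99 ± 0.28, adjusted p = 0.0087). The HOXA11 call was lost without HaCaT 0 h B or HaCaT 24 h A, while those of HOXA9 and HOXA10 held without any 1 library. Under the limma-trend fit the HOXA9 call was lost.

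In HOXC the response of HaCaT was mixed. HOXC12 went from 31.7, 29.04 and 32.2 CPM at 0 h through 29.15, 24.7 and 28.6 CPM at 6 h to 20.5, 20.6 and 21.4 CPM at 24 h. The 24 h libraries lay below all others (log2 -0.57 ± 0.13, adjusted p = 0.0013). HOXC13, beside it, was at 74.03, 66.02 and 68.96 CPM at 24 h, overlapping its 0 h values (log2 -0.06 ± 0.11, adjusted p = 0.71). HOXC6 went from 16.3, 17.15 and 16.1 to 25.2, 24.8 and 23.4 CPM (log2 0.57 ± 0.18, adjusted p = 0.021), and HOXC4 from 3.91, 5.015 and 3.93 to 6.86, 8.12 and 5.02 CPM (log2 0.64 ± 0.23, adjusted p = 0.033). Both sets of 24 h libraries were above the 0 h ones. HOXC8 went from 4.42, 4.705 and 4.43 to 3.11, 1.98 and 2.61 CPM and fell (log2 -0.81 ± 0.27, adjusted p = 0.026). These last 3 calls were the least steady: those of HOXC4 and HOXC6 were lost without HaCaT 0 h A or C or HaCaT 24 h A or B, and that of HOXC8 without any 1 of the 0 h libraries or HaCaT 24 h B or C. With these losses, the count that rose ran from 2 to 5 and the count that fell from 3 to 5 when 1 library was left out.

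In TIGK fewer HOX genes were called at 24 h, and 3 of the 4 had also been called in the same direction in HaCaT. Of 30 genes 3 rose, against 15.3% of all genes, and 1 fell, against 17.0%. HOXD10 went from 4.92, 3.98 and 2.95 CPM at 0 h to 7.4, 5.68 and 6.36 CPM at 24 h. Every 24 h library was above every 0 h library (log2 0.74 ± 0.18, adjusted p = 0.0027). HOXD11 went from 3.38, 1.85 and 1.89 CPM to 6.155, 3.135 and 5.402 CPM (log2 1.06 ± 0.30, adjusted p = 0.0075). Its groups overlapped, since TIGK 0 h A was above TIGK 24 h B, and the call was lost without TIGK 24 h A. HOXA11 went from 4.855, 5.08 and 4.46 CPM to 2.23, 1.24 and 3.01 CPM, without overlap (log2 -1.15 ± 0.27, adjusted p = 0.0019). HOXC13 went from 40.1, 42.6 and 32.3 CPM to 54.35, 43.2 and 52.2 CPM and rose (log2 0.39 ± 0.11, adjusted p = 0.0082), with all 24 h libraries above all 0 h libraries. That call was lost without TIGK 0 h C, the library with the lowest HOXC13 value. Without TIGK 0 h A, 5 HOX genes rose and 2 fell in TIGK, and without TIGK 24 h C, 2 fell, HOXA10 being added in both. HOXA9 and HOXA10 stayed low, at 1.375, 0.718 and 1.64 and 0.655, 0.784 and 1.44 CPM at 24 h. HOXA10 was not called in TIGK (log2 -0.73 ± 0.32, adjusted p = 0.081), but its change was near the -0.74 called in HaCaT. The line difference in its response was -0.01 and was not called. HOXD9 was at 8.48, 6.404 and 5.45 CPM at 0 h and 5.37, 6.66 and 6.29 CPM at 24 h, which overlap, and was not called (log2 -0.13 ± 0.18, adjusted p = 0.61).

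**Figure D5:**
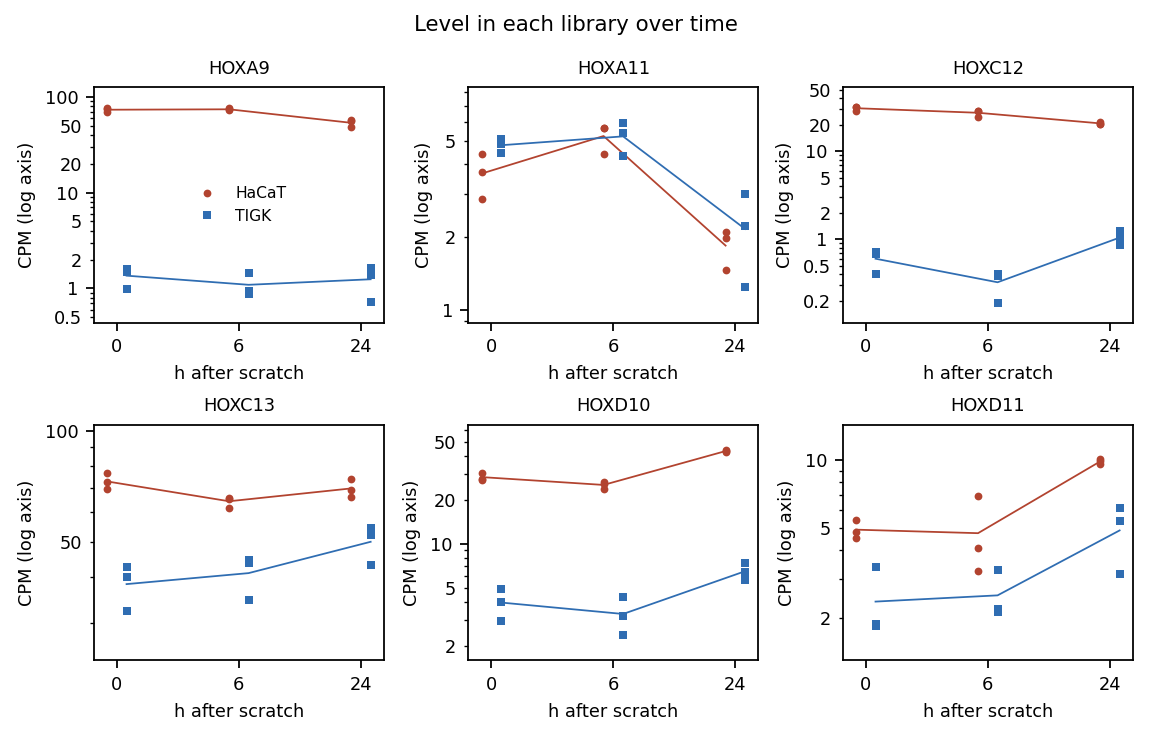
CPM on a log axis in every library at 0 h, 6 h and 24 h for HOXA9, HOXA11, HOXC12, HOXC13, HOXD10 and HOXD11, with lines through the group means, HaCaT in red and TIGK in blue. HOXA11 falls and HOXD10 rises in both lines at 24 h, and the HOXC12 means of the lines draw nearer.

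The 24 h response itself differed between the lines for HOXC12. The line difference was tested as the HaCaT change minus the TIGK change, and 0 of 30 HOX genes were more positive in HaCaT, against 7.07% of all genes, and 1 was more negative, against 6.45%. HOXC12 in TIGK was at 0.676, 0.404 and 0.719 CPM at 0 h and 0.851, 1.045 and 1.23 CPM at 24 h, on 11, 7 and 19 and 13, 16 and 18 counts. All the 24 h libraries were above those of 0 h, but the change within TIGK did not pass the test (log2 0.76 ± 0.28, adjusted p = 0.052), while HOXC12 fell in HaCaT. The rise in TIGK was called under 6 of 25 other settings: the limma-trend fit (adjusted p = 0.017), relative log expression scaling (0.049), a block by letter (0.037), and without TIGK 0 h C (0.047), TIGK 24 h A (0.042) or both TIGK 0 h C and TIGK 6 h C (0.046). The difference of the 2 changes was -1.33 ± 0.31 on the log2 scale (adjusted p = 0.0041), and -1.20 without TIGK 24 h C. For HOXC13 it was -0.45 ± 0.15 (adjusted p = 0.052) and for HOXD9 0.62 ± 0.23 (adjusted p = 0.082), and neither was called. HOXD9 was called more positive in HaCaT without TIGK 0 h C or without TIGK 6 h C. HOXC13 was called more negative without TIGK 0 h B, TIGK 6 h C or TIGK 24 h B, and HOXB4 without TIGK 0 h C. For HOXD10, HOXD11 and HOXA11, called in both lines, the differences were -0.15 ± 0.23, -0.06 ± 0.40 and 0.16 ± 0.39, with adjusted p of 0.75, 0.96 and 0.86.

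Lists of related genes were read against the same background at 0 h, 29.3% higher and 33.3% lower among all genes with a median of -0.04. Among the noncoding RNAs of the clusters, most were higher in HaCaT. Of 18 listed, 12 were tested at 0 h, of which 9 were higher in HaCaT and 1 lower, with a median log2 fold change of 2.68. HOTAIRM1, from the head end of HOXA, was at 28.96 ± 0.5795 CPM in HaCaT and 3.298 ± 1.295 CPM in TIGK (SD, n = 3), or 8.798-fold (adjusted p = 1.3e-13). HOTAIR, transcribed from HOXC and known for its binding to Polycomb complexes, was 11.8-fold higher (adjusted p = 1.3e-08). HOXD-AS2, antisense beside HOXD8, was 11.2-fold higher in HaCaT at 7.19 ± 0.957 against 0.636 ± 0.228 CPM (adjusted p = 2.1e-10), the opposite direction to HOXD8. HAGLR, from the head side of HOXD, was the 1 called lower, with 0, 0 and 0 counts in HaCaT and 26, 19 and 40 in TIGK at 0 h. 

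Genes that flank the clusters and share their chromosomal region were split. Of 13 tested, 5 were higher and 5 lower in HaCaT at 0 h, with a median log2 fold change of -0.10. CALCOCO1, near HOXC, and CBX5, a heterochromatin protein gene of the same region, differed by log2 1.55 (adjusted p = 3.1e-11) and -1.02 (adjusted p = 1.5e-09). TAX1BP1 and SKAP2, near HOXA, differed by log2 1.10 and 1.03 (adjusted p = 3.5e-12 and 1.5e-09).

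The HOX cofactors of the PBX and MEIS families, which bind DNA together with HOX proteins, also went both ways. At 0 h 2 of 8 tested were higher in HaCaT and 4 lower, with a median log2 fold change of -0.33. MEIS3 was at 36.3 ± 3.59 CPM in HaCaT and 7.07 ± 2.18 CPM in TIGK (adjusted p = 9.3e-12), and PBX3 at 22.7 ± 1.44 and 6.73 ± 0.288 CPM (adjusted p = 2.1e-11). PBX2 was 2.24-fold lower in HaCaT (adjusted p = 3.3e-09).

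Among the chromatin complexes that keep HOX genes silent or active, Polycomb members were more often lower than higher in HaCaT. Of 28 tested at 0 h, 5 were higher and 13 lower, with a median log2 fold change of -0.23. BMI1, a core member of the first Polycomb complex, was at 30.6 ± 1.41 CPM in HaCaT and 5.82 ± 1.42 CPM in TIGK (adjusted p = 5.7e-12). JARID2, which recruits the other Polycomb complex, was 3.44-fold lower in HaCaT (adjusted p = 1.1e-11), as were MTF2 at 2.62-fold and CBX6 at 2.399-fold. Another list held 15 genes of the trithorax group, H3K27 demethylases and others, DOT1L and PSIP1 being neither. Of these 15 genes, 5 were higher and 5 lower, with a median log2 fold change of 0.06. WDR5, a shared subunit of the H3K4 methyltransferases, was at 253 ± 6.45 CPM in HaCaT and 150.0 ± 9.02 CPM in TIGK (adjusted p = 3.4e-10). DOT1L was 1.91-fold higher, and PSIP1 and KMT2B were 1.62- and 1.43-fold lower.

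Upstream inputs to HOX genes, retinoic acid and the CDX factors, gave 6 higher and 4 lower of 13 tested, with a median log2 fold change of 0.18. CYP26B1, which degrades retinoic acid, was 6.45-fold higher in HaCaT at 46.4 ± 1.75 against 7.225 ± 0.823 CPM (adjusted p = 2e-14). ALDH1A1, which makes it, was at 10.57 ± 0.584 CPM in HaCaT and had 0, 1 and 3 counts in the TIGK libraries. The retinoic acid receptor gene RARG was 2.455-fold higher (adjusted p = 6.4e-12), and CRABP2, which carries retinoic acid in the cell, 4.98-fold lower (adjusted p = 2.4e-12).

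Homeobox genes of the face and mouth that lie outside the HOX clusters were set beside them. Of 20 tested at 0 h, 7 were higher in HaCaT and 12 lower, with a median log2 fold change of -0.83. BARX1, a gene of tooth and jaw development, had 4, 0 and 5 counts in HaCaT and 111 ± 35.3 CPM in TIGK. LHX6 was 40.8-fold lower in HaCaT (adjusted p = 1.1e-15), and SIX2 11.15-fold lower (adjusted p = 7.3e-10). For each of these 3 genes all 3 TIGK libraries were above all 3 HaCaT libraries at 0 h.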

How the data were processed

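RNA-seq counts of 18 libraries were analysed. Per the labels' protocols, RNA was taken with Trizol and 1 µg went into each library. The tools named in the submitters' processing notes are featureCounts 1.5.0-p3, HISAT2 2.0.5 and StringTie 1.3.3b, with the build hg38; the annotation, the strand setting and any filter are not given in the sources used here. The authors deposited whole-number counts per gene and FPKM. Their FPKM equal count over gene length and a constant per library, so depth is known from the counts. These constants match median-of-ratios size factors to within a relative deviation of 3.2e-12.

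All 39 HOX genes were matched by name (40 rows, 1 with no count); coordinates, identifiers and lengths are those of the deposited table and equal GENCODE 29. Counts were fitted with edgeR 4.0.16 (R 4.3.3): TMM, filterByExpr, 6 group means, 12 residual degrees of freedom, a quasi-likelihood test and Benjamini-Hochberg adjustment over 17409 genes at 0.05. Standard errors are the log2 fold change over the root of F. CPM are counts per 1000000 of the TMM-scaled total. The fit was tested on simulated data. Alternatives were relative log expression scaling, no filter, only the groups compared, a block by letter, DESeq2 1.42.0, limma 3.58.1 on log2(FPKM + 0.1), leaving out libraries, FPKM of at least 1 for presence and CPM for shares.

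The members and gene lists were chosen with earlier results of these data known. Values per library are given for members at 10 CPM or more on average in a group or called in a response; up to 4 genes per list were named by lowest adjusted p at 0 h. A few single-gene results are not reported here. The column letters are not tied to the labels' replicate numbers. No 2 libraries were identical. Exon overlaps come from GENCODE 29. Intervals and floors cover counting error only.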

Additional observations from a re-analysis of the deposited data

Results flagged for a closer look

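HOXC12 was the 1 HOX gene whose 24 h response differed between the lines by a test of that difference: the HaCaT change minus the TIGK change was -1.329 on the log2 scale (edgeR, adjusted p = 0.0041). It fell in HaCaT from 30.98 ± 1.701 to 20.8 ± 0.507 CPM (SD, n = 3), lower in 3 of 3 libraries, and stood at 0.5995 ± 0.171 and 1.04 ± 0.1898 CPM in TIGK, higher in 3 of 3 but not called, although it was called under 6 of 25 other settings. Over all settings the difference ran from -1.52 to -1.115, with adjusted p from 0.0036 to 0.02. The TIGK values rest on 7 to 19 counts per library, and the cause was not tested.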

How the results depend on the processing

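Over 25 alternative settings, 69 of the 87 calls on single HOX genes held wherever the setting gave a value, 106 of 2167 recomputed values lost their call and 0 reversed. Fitting only the groups compared left 2 lower genes at 0 h and 2 at 24 h in HaCaT against TIGK, in place of 5 and 4; 8 calls had no value there because the genes fell below the filter. Leaving out 1 library gave 19 to 20 higher and 4 to 5 lower at 0 h, 18 to 20 and 3 to 4 at 6 h, and 17 to 19 and 3 to 4 at 24 h. For HaCaT at 24 h it gave 2 to 5 that rose and 3 to 5 that fell, for TIGK 3 to 5 and 1 to 2, and for the line difference in the 24 h response 0 to 1 more positive and 1 to 2 more negative. The limma-trend fit gave TIGK 5 genes that rose and 2 that fell at 24 h, and 2 with a more negative response in HaCaT. Without TIGK 0 h C and 6 h C these were 5 that rose and 2 more negative, with 1 more positive. Between the lines, the calls of HOXB3 at 0 h, HOXA13 at 24 h and HOXC8 at 24 h were lost under 20, 21 and 17 settings. The cause was not tested.

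Pairing by letter was not clear across the series, and it cannot be set aside within TIGK. In 0 of 7 pairs of groups did every same-letter correlation pass 0.1. Within the lines, 11 of 18 libraries correlated best with their own letter, more than equal odds among the letters A, B and C would give. Between TIGK 0 h and 6 h the correlations were 0.105, 0.0944 and 0.388 for letters A, B and C, against at most 0.0478 elsewhere. With a replicate block by letter, 2 HOX genes had a more negative 24 h response in HaCaT, HOXC13 being added (adjusted p = 0.031); the other counts stayed within 1.5 times. HOXC12 in TIGK (adjusted p = 0.037) and HOXD8 in HaCaT (adjusted p = 0.038) were called at 24 h, and HOXB3 at 0 h, HOXC8 and HOXA13 at 24 h were lost.

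With a mean FPKM of at least 1 as the measure of presence, 12 genes were present in TIGK at 0 h and 12 at 24 h. With CPM in place of FPKM the HaCaT shares at 0 h, 6 h and 24 h were 39.1%, 41.5% and 32.3% for HOXA, 2.07%, 2.025% and 2.28% for HOXB and 13.1%, 12.5% and 20.55% for HOXD, with 44.9% for HOXC at 24 h. The TIGK shares were 8.53%, 8.08% and 8.27% for HOXB and 56.3%, 58.8% and 58.6% for HOXC. Low counts limit HOXB1, HOXB2, HOXB8, HOXB13 and the HOXD genes outside HOXD8 to HOXD11.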
